A study of Homo sapiens with 2 samples.

Results

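The nuclear genes of respiratory complex I were followed in PLC cells, a line of human liver cancer, with and without over-expression of the protease PRSS35. The genes were taken by name: every gene of both deposited expression tables whose symbol is NDUFA, NDUFAB, NDUFB, NDUFC, NDUFS, NDUFV or NDUFAF followed by a number. This gave 45 of the 26228 gene names present in both tables, and 45 of the 11118 names with a mean level of at least 1 FPKM. FPKM is the number of sequenced fragments of a gene relative to the length of its transcript and the depth of the library. The EV library came from cells with the empty vector, labelled WT, and the PRSS35 library from cells that over-expressed PRSS35. Both lines carried a lentiviral vector, were selected with puromycin and were grown in DMEM with serum, glucose, glutamine and pyruvate. Each condition is 1 library, so the differences below could not be checked against replicates and carry no p-values. In such bulk RNA, fewer cells with a transcript and less of it per cell cannot be told apart.

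Complex I, NADH:ubiquinone oxidoreductase, takes electrons from NADH in the mitochondrial matrix, passes them along a flavin and a chain of iron-sulfur clusters to ubiquinone, and pumps protons across the inner membrane. Core subunits carry out this chemistry, accessory subunits surround and stabilise them, and assembly factors help build the complex without staying in it. The core subunits of the membrane arm are encoded by mitochondrial DNA and were not analysed here. Of the 45 genes, 7 encode core subunits, 13 accessory subunits of the NDUFA and NDUFAB1 group, 11 those of the NDUFB group and 6 those named NDUFC, NDUFS or NDUFV3. A further 7 encode the assembly factors NDUFAF1 to NDUFAF7, and NDUFA4, in spite of its name, encodes a subunit of cytochrome c oxidase. The genes lie on 21 chromosomes.

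PRSS35 had a level of 0.643 FPKM in the EV library and 1836 FPKM in the PRSS35 library. All 8 hepatocyte-lineage markers had a mean level of at least 1 FPKM, with SERPINA1 at 2528 and 4239 FPKM but ALB, the gene of serum albumin, at only 4.05 and 5.21 FPKM. PTPRC, a marker of leukocytes, was listed at 0 in both libraries. The FPKM per implied fragment was nearly the same in both libraries (median ratio 0.999 over 208 loci). Fragments here are implied from the width of the interval that Cufflinks gave a level and are not counts. The 208 loci were annotated rows picked for a small and nearly whole implied number. The median log2 change over all 11118 genes was 0.06, and it became 0.68 when each library was divided by the sum of its FPKM values. That sum over all loci was 2469030 FPKM in EV and 1508530 FPKM in PRSS35 cells. The 11118 expressed names added to 1035840 and 998221 FPKM, with a joined row counted for each of its names. The sums over all loci thus differed far more than those over the expressed names, and why was not tested.

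Transcripts of complex I were mostly slightly lower in PRSS35 cells than in EV cells. The level was lower for 30 of the 45 genes (66.7%), where 39.8% of all expressed genes were lower, and the median log2 change was -0.11, against 0.06 for all genes. Conversely, 15 of the 45 were higher, where 60.2% of all genes were. These shares are not matched for level, and the median EV level was 133 FPKM for complex I genes but 10.1 FPKM for all genes. Of all genes, 36.3% were lower at a mean of 1 to 10 FPKM and 38.7% at 10 to 100. The share was 53.1% at 100 to 500 FPKM, where 9 of 18 complex I genes were lower, and 62.1% at 500 or more. The lower direction of complex I genes rests on FPKM as deposited. Scaled to the library's summed FPKM, 41 of the 45 genes were higher and their median was 0.59, still below the 0.68 of all genes. Only NDUFA5, NDUFA10, NDUFAF5 and NDUFB6 remained lower on that scale, so the counts of lower genes below, by role, level or base composition, all hold for FPKM as deposited. Changes are PRSS35 over EV on the log2 scale, with 1 FPKM added to each level, which understates the change of low genes. Most were small, and 38 of the 45 changed by less than 1.5-fold. At 2-fold or more, 2 genes were higher (NDUFB10 and NDUFA7), where 2.73% of all genes were, and 2 were lower (NDUFA5 and NDUFA10), where 2.48% of all genes were.

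Beside each level stands the interval that Cufflinks placed around it, which covers error within a library only. The intervals did not overlap for 15 genes that were lower in PRSS35 cells (15.6% of all genes tested) and for 10 that were higher (25.2% of all genes tested), and they overlapped for the other 20. These shares depend on level, and the median EV level was 133 FPKM for complex I genes but 10.1 FPKM for all genes. Of all genes tested, 8.37% were lower with intervals apart at 1 to 10 FPKM and 17.4% at 10 to 100. The share was 35.1% at 100 to 500 FPKM and 37.2% at 500 or more. Higher with intervals apart were 1054 of 5318, 1325 of 4146, 315 of 1195 and 81 of 341, in the same order. Both changes toward higher levels at 2-fold stood on irregular rows, described with these genes below. Without NDUFB10 and NDUFA7, 30 of 43 genes were lower, the median was -0.12, and the intervals lay apart for 15 lower and 8 higher genes. Added over the 35 remaining subunits, the level was 13616 FPKM in EV and 11808 FPKM in PRSS35 cells, but as a share of the library's summed FPKM it turned to higher, with 0.551% in EV and 0.783% in PRSS35 cells.

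**Figure D1:**
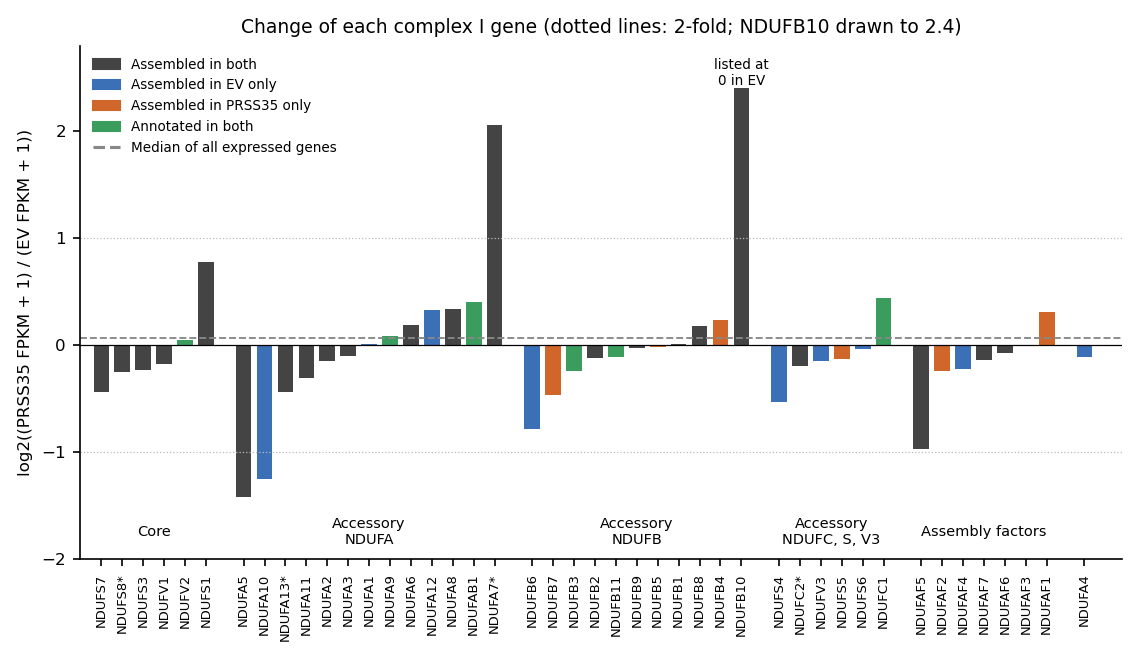
Bars give the log2 change (vertical axis) of 44 of the 45 complex I genes from EV to PRSS35, 1 library each, grouped by role, beside the median of all expressed genes at 0.06 (dashed). Most bars lie slightly below 0 and 2 genes pass 2-fold in each direction, but scaled to the library's summed FPKM 41 of the 45 genes lie above 0 (colours, row type; asterisk, joined row; the bar of NDUFB10, listed at 0 in EV, is cut short).

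The promoters of these genes were read for short sequences bound by factors known to act on genes of respiration: NRF1 (GCGCATGC), ETS factors such as GABPA (CCGGAAG), ERR receptors (AAGGTCA), YY1 (AAGATGGCG) and CREB-type factors (TGACGTCA). The windows are the RefSeq promoters of build GRCh38.p14, from 250 bases before to 50 after the start of transcription, searched on both strands. Of the 45 genes 39 had such a window, and NDUFAF6, NDUFS5, NDUFC2, NDUFB5 and NDUFB9 were among those with none. The NRF1 letters stood in 7 of the 39 windows (17.9%), against 3.74% of protein-coding promoters and 3.05% of all promoters. The YY1 letters stood in 5 (12.8%), against 2.41% and 1.75%. The ERR letters stood in 4 (10.3%), against 3.22% and 3.92%, the ETS letters in 6 (15.4%), against 12.8% and 10.3%, and the CREB letters in 2 (5.13%), against 2.26% and 1.85%. A match is a description of the letters only and was not tested as a binding site.

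The windows of 6 genes are printed from 100 bases before to 30 after the start. These genes are abundant, changed by more than 2-fold, share letters while differing in change, or hold ERR letters in that part. NDUFS7 and NDUFB7 are among the abundant transcripts with lower levels, and carry NRF1 with YY1 letters and ETS letters, respectively. NDUFA8 and NDUFAF5 hold the same NRF1 letters at the same distance from the start, read on both strands so that the matches overlap, and changed in opposite directions. NDUFA10, lower by more than 2-fold, holds CREB letters, and NDUFB4 ERR letters. Outside the printed part, NDUFB4 also holds NRF1 letters (from -159 and -157) and NDUFS7 ERR letters (from -171). The windows are chr19:1383807-1383936 (+ strand) for NDUFS7, chr19:14572037-14572166 (- strand) for NDUFB7, chr9:122159750-122159879 (- strand) for NDUFA8, chr20:13784928-13785057 (+ strand) for NDUFAF5, chr2:240025313-240025442 (- strand) for NDUFA10 and chr3:120596236-120596365 (+ strand) for NDUFB4, all of GRCh38.p14. Capitals mark the searched letters.
NDUFS7: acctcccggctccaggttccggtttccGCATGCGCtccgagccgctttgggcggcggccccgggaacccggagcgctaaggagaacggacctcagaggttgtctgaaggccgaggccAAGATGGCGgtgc
NDUFB7: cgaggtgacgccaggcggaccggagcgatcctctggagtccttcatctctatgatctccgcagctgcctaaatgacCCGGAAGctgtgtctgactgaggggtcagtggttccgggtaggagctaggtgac
NDUFA8: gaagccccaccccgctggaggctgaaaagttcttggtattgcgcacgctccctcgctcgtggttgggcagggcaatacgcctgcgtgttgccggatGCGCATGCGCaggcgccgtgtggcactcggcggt
NDUFAF5: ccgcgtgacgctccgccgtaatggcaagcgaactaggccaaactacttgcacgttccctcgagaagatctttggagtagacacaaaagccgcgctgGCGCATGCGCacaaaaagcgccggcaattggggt
NDUFA10: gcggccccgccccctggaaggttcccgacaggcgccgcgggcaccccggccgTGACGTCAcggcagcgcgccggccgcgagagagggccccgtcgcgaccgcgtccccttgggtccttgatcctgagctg
NDUFB4: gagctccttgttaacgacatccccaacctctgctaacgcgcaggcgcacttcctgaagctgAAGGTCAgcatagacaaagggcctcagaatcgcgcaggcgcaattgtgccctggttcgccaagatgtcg

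Genes with the NRF1 letters were lower in 4 of 7 cases (median log2 change -0.04), and genes without them in 20 of 32 (median -0.12). With the ETS letters 4 of 6 were lower (median -0.23) and without them 20 of 33 (median -0.11), and with the YY1 letters 2 of 5 (median 0.09) and without them 22 of 34 (median -0.12). The YY1 genes include NDUFA7, whose change compares unlike rows, as described below. Without it the YY1 genes were NDUFA6 (0.19), NDUFA9 (0.09), NDUFS7 (-0.44) and NDUFS4 (-0.53), so the sign of the YY1 median rests on NDUFA7. With the ERR letters 3 of 4 were lower (median -0.24) and without them 21 of 35 (median -0.12). Both genes with the CREB letters, NDUFA10 and NDUFB2, were lower (median -0.69), and of those without them 22 of 37 (median -0.11). NDUFA8 had a log2 change of 0.34 and NDUFAF5 one of -0.98, with NRF1 letters starting at -4 and -2 from the start of transcription in both.

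Of the 7 core subunits 5 were lower, where 39.8% of all genes were, and the median over them was -0.18 on the log2 scale. Of all genes at 100 to 500 FPKM 53.1% were lower, and at 500 FPKM or more 62.1%. NDUFS8, which carries iron-sulfur clusters, had a level of 1218 FPKM (interval 1164 to 1271) in EV and 1021 FPKM (976 to 1066) in PRSS35 cells (log2 change -0.25), on a row that also named the microRNA gene MIR4691 in EV. NDUFS7, which holds the last iron-sulfur cluster before ubiquinone, went from 1110 FPKM (1061 to 1159) to 816 FPKM (779 to 853), a log2 change of -0.44. The intervals lay apart for both of these abundant core genes. NDUFV1, the subunit that binds NADH and the flavin, had levels of 444.0 FPKM (425 to 463) and 392 FPKM (375 to 410), a log2 change of -0.18. NDUFS3, part of the module that joins the arms near ubiquinone, had levels of 153 FPKM (144 to 161) and 130 FPKM (122 to 137), a log2 change of -0.23. Intervals were again apart, which made 4 lower core subunits with intervals apart, where 15.6% of all genes were. Of all genes at 100 to 500 FPKM, as NDUFV1 and NDUFS3, the share was 35.1%. At 500 FPKM or more, as NDUFS7 and NDUFS8, it was 37.2%.

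NDUFV2, an iron-sulfur partner of NDUFV1, had levels of 153 FPKM (145 to 162) and 158 FPKM (150 to 167), a log2 change of 0.05 with overlapping intervals. NDUFS1, which carries several of the iron-sulfur clusters, went the other way from the abundant core genes, from 14.3 FPKM (13.4 to 15.3) in EV to 25.3 FPKM (23.8 to 26.8) in PRSS35 cells (log2 change 0.78). It was also the core gene with the lowest level in both libraries. Its row was assembled from the reads in both libraries. Its interval widths correspond to 879 implied fragments in EV and 1155 in PRSS35 cells, a measure of relative width and not a count.

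**Figure D2:**
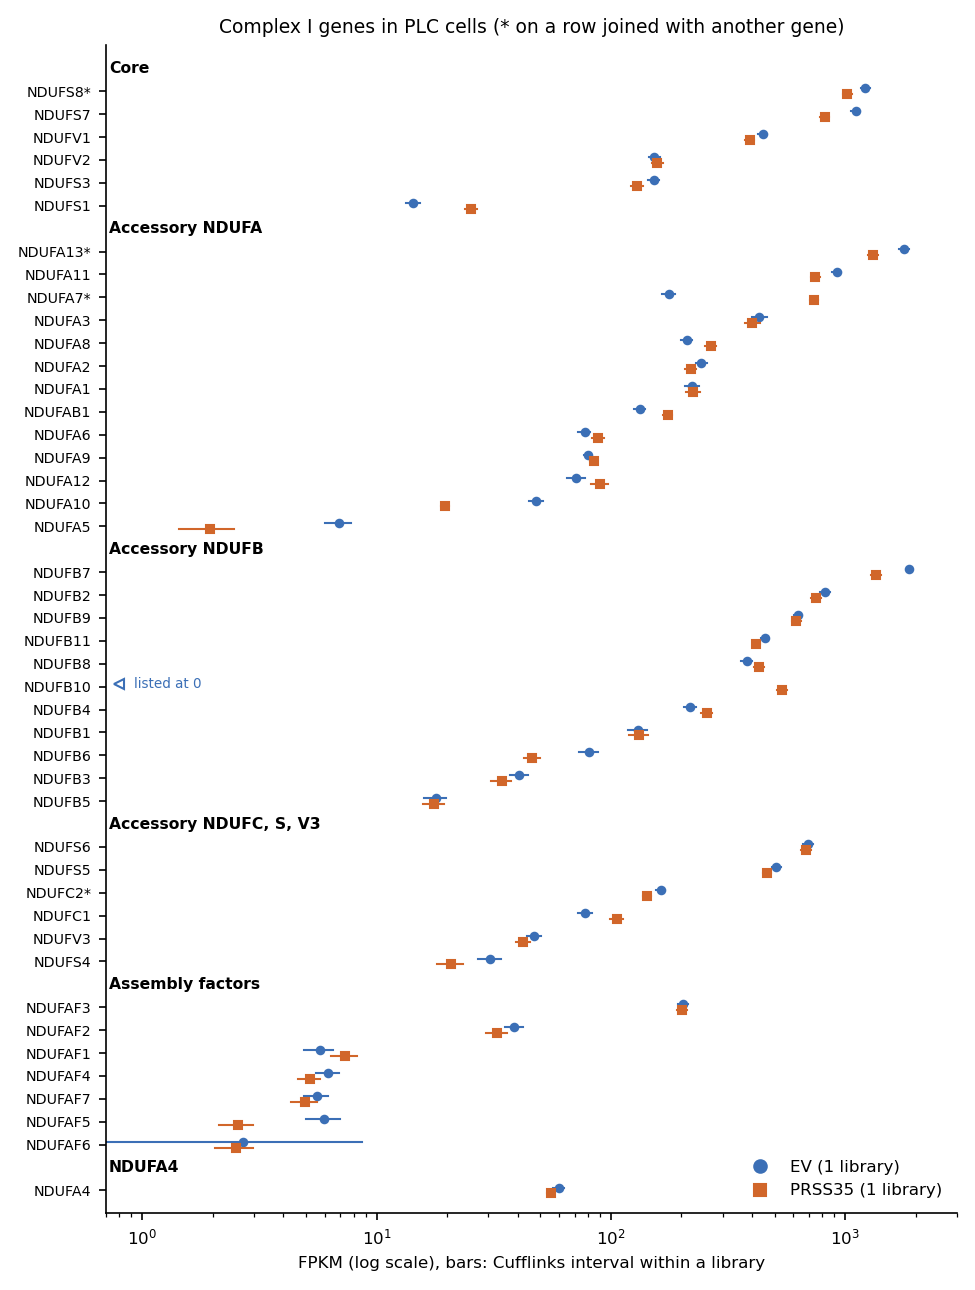
FPKM level of 44 of the 45 complex I genes in the EV and PRSS35 libraries on a log axis, with the interval Cufflinks gave each level, grouped by role. The subunits span 270-fold in EV from NDUFB7 to NDUFA5, and NDUFB10 is listed at 0 in EV.

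The 13 accessory subunits of the NDUFA group divided almost evenly, with 6 lower, 7 higher and a median log2 change of 0.01. The largest changes of the whole set among genes above 0 and on a row of their own were in this group, and both were toward lower levels. NDUFA5, an accessory subunit of the matrix arm, had 6.93 FPKM (6.06 to 7.80) in EV and 1.95 FPKM (1.43 to 2.47) in PRSS35 cells (log2 change -1.43). Its intervals correspond to 254 and 56.7 implied fragments, and with a pseudocount of 5 FPKM it no longer reached 2-fold. The NDUFA5 row of both libraries spans chr7:123177052-123241705 of hg19, past the GENCODE gene, which ends at 123197958, and 12 pseudogenes carry its name.

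NDUFA10, an accessory subunit of the membrane arm on the matrix side, had 48.0 FPKM (44.8 to 51.2) in EV and 19.6 FPKM (18.8 to 20.3) in PRSS35 cells (log2 change -1.25). Its transcripts were assembled from the reads in EV only, and taken from the annotation in PRSS35. The interval widths correspond to 894 implied fragments in EV and 2860 in PRSS35, the opposite order to the levels. The part of the transcript model in this change was not tested.

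NDUFA13, also known as GRIM-19, was the highest transcript of the group with 1784 FPKM (1705 to 1864) in EV and 1317 FPKM (1257 to 1378) in PRSS35 cells (log2 change -0.44). It shared a row with YJEFN3 in both libraries, so its own level is uncertain. NDUFA11, a membrane-arm subunit, had 923 FPKM (882 to 964) and 745 FPKM (711 to 779), a log2 change of -0.31. Both abundant transcripts had intervals that lay apart. Against them stood NDUFAB1, the mitochondrial acyl carrier protein, with 133 FPKM (126 to 139) in EV and 175 FPKM (168 to 183) in PRSS35 cells (log2 change 0.40). NDUFA8, which faces the intermembrane space, had 211 FPKM (199.9 to 222) and 267 FPKM (253 to 280.1), a change of 0.34, and NDUFA12, a matrix-arm subunit, had 71.3 and 89.7 FPKM (0.33). The other genes of the group above 0 on their own rows, NDUFA1, NDUFA2, NDUFA3, NDUFA6 and NDUFA9, had log2 changes between -0.15 and 0.19.

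The level listed for NDUFA7 depended on how its row was drawn. In EV it had a row of its own, chr19:8376184-8386280 of hg19, with 176 FPKM (165 to 188). In PRSS35 it was joined with its neighbour CD320, a receptor for vitamin B12 carried by transcobalamin, in a row that spans chr19:8367011-8386280 with 736 FPKM (710 to 762). The log2 change of 2.06 therefore compares NDUFA7 alone with both genes. In EV, CD320 had 609 FPKM, the levels of both genes added to 785 FPKM, and the joined row stood at a log2 change of -0.09 from this sum.

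**Figure D3:**
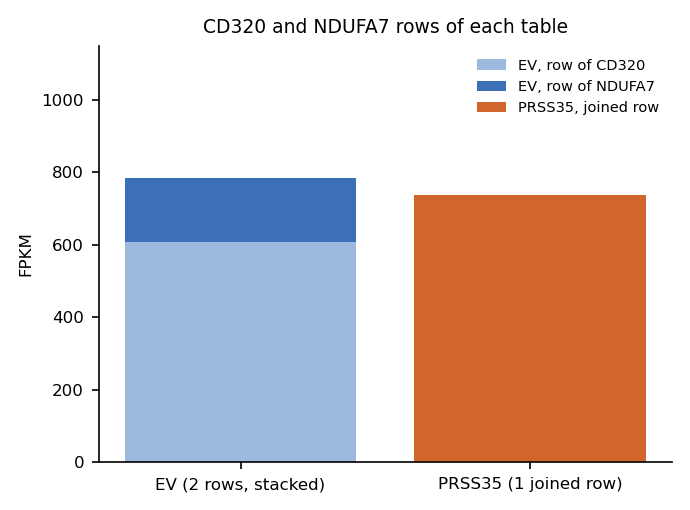
FPKM of the NDUFA7 and CD320 loci in each library: separate rows in EV (176 and 609 FPKM, 785 FPKM added) and 1 joined row in PRSS35 (736 FPKM). The joined row lies close to the EV sum and far above NDUFA7 alone.

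Of the 45 genes, 4 stood on a joined row in at least 1 library, where 13.1% of all expressed genes did. Beside NDUFS8, NDUFA13 and NDUFA7, this was NDUFC2, with KCTD14 and the readthrough NDUFC2-KCTD14 in both libraries. The locus was identical between the libraries for 41 of the 45 genes.

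Among the 11 NDUFB subunits of the membrane arm, 7 were lower and the median log2 change was -0.03. NDUFB7, a subunit that faces the intermembrane space, was the highest complex I transcript in both libraries, with 1873 FPKM (1843 to 1903) in EV and 1356 FPKM (1294 to 1417) in PRSS35 cells. Its log2 change was -0.47 and its intervals lay apart, although its transcripts were assembled from the reads in PRSS35 only. The interval widths of NDUFB7 correspond to 15441 implied fragments in EV and 1943 in PRSS35 cells, far more unequal than its levels. NDUFB6 had 80.3 FPKM (72.8 to 87.9) and 46.3 FPKM (42.5 to 49.99), a log2 change of -0.78, while its interval widths correspond to 454 and 613 implied fragments. NDUFB6 was assembled in EV only, like NDUFA10.

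NDUFB10, a further subunit facing the intermembrane space, was listed at 0 in EV and had 537 FPKM (511 to 562) in PRSS35 cells, on the same row, chr16:2009517-2011976 of hg19. A 0 in a table of this kind can be a failed estimate, and 1.93% of all expressed genes were listed at 0 in 1 library only. NDUFB10 passed the minimum level only through the PRSS35 library, no fold change is given for it, and it ranked number 10 of the 45 genes there. RPS2, the neighbouring gene of a ribosomal protein, had 11031 and 10769 FPKM.

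The remaining NDUFB genes differed by less than 1.5-fold. NDUFB2, NDUFB9 and NDUFB11 had levels from 418 to 821 FPKM and log2 changes from -0.12 to -0.03. NDUFB8 went from 380 to 429 FPKM and NDUFB4 from 219 to 256 FPKM, log2 changes of 0.18 and 0.23. NDUFB5, among the 3 lowest subunits by mean level, had 17.9 FPKM (16.0 to 19.8) and 17.6 FPKM (15.7 to 19.4). NDUFB1, NDUFB3 and NDUFB5 had log2 changes of 0.01, -0.25 and -0.02. NDUFB4 has 12 pseudogenes that carry its name, so its reads could be split between copies.

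Of the 6 accessory subunits named NDUFC, NDUFS or NDUFV3, 5 were lower, and the median log2 change was -0.14. NDUFS4, which completes the electron-input module, had 30.5 FPKM (27.1 to 33.9) in EV and 20.8 FPKM (18.2 to 23.4) in PRSS35 cells (log2 change -0.53) with intervals apart. It was assembled from the reads in EV only. NDUFC2 had 163 FPKM (156 to 170) and 142 FPKM (137 to 148), a log2 change of -0.20, on its joined row. NDUFC1, a small membrane-arm subunit, was the gene of this group that was higher, with 77.9 FPKM (72.5 to 83.3) and 106 FPKM (99.0 to 113), a log2 change of 0.44 with intervals apart. NDUFS5, NDUFS6 and NDUFV3 had log2 changes of -0.13, -0.04 and -0.15.

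The assembly factors were lower in 6 of 7 cases with a median log2 change of -0.14, and for 6 of them the intervals overlapped. Apart from NDUFAF3, which acts with NDUFAF4 on the ubiquinone module and had 203 FPKM (193 to 213) and 202 FPKM (192 to 211), all had levels of 38.7 FPKM or less. NDUFAF2, a relative of NDUFA12 that holds its place during assembly, had 38.7 FPKM (35.4 to 42.1) in EV and 32.6 FPKM (29.3 to 36.0) in PRSS35 cells (log2 change -0.24). NDUFAF4 had 6.23 FPKM (5.52 to 6.93) and 5.19 FPKM (4.63 to 5.75), a change of -0.22. Both factors were lower with intervals that overlapped. NDUFAF7, a methyltransferase, had 5.55 FPKM (4.90 to 6.20) and 4.94 FPKM (4.33 to 5.55), a change of -0.14. NDUFAF1, a factor of membrane-arm assembly, was the factor with a higher level in PRSS35 cells, at 7.31 FPKM (6.37 to 8.25) against 5.72 FPKM (4.90 to 6.54), a change of 0.31. NDUFAF6 had 2.71 FPKM (0 to 8.68) and 2.51 FPKM (2.04 to 2.98), and the EV interval covered the whole PRSS35 interval.

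NDUFAF5, which hydroxylates an arginine of NDUFS7, had the lowest PRSS35 to EV ratio of the factors. Its level was 5.99 FPKM (5.01 to 6.98) in EV and 2.55 FPKM (2.13 to 2.97) in PRSS35 cells (log2 change -0.98), and the intervals lay apart. The interval widths correspond to 148 implied fragments in EV and 147 in PRSS35 cells, so relative to their levels the intervals were nearly equally wide. NDUFA4 had 60.0 FPKM (56.7 to 63.2) and 55.3 FPKM (53.4 to 57.3), a log2 change of -0.11 with overlapping intervals.

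The rank of the genes by level was nearly the same in both libraries, with a Spearman correlation of 0.987 over 43 genes. These points share the genes, and so most of the transcript sequence, between the libraries. Between the highest and the lowest of 35 subunits the levels differed 270-fold in EV and 695-fold in PRSS35 cells, with NDUFB7 at the top and NDUFA5 at the bottom of both. Transcripts of subunits of the same complex thus had very unequal levels per length.

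All 8 genes with a mean of at least 500 FPKM, NDUFB7, NDUFA13, NDUFS8, NDUFS7, NDUFA11, NDUFB2, NDUFS6 and NDUFB9, were lower in PRSS35 cells, 5 of them with intervals apart, and their median log2 change was -0.28. Of all 346 expressed genes at this level 62.1% were lower, with a median of -0.06, and the intervals lay apart with a lower level for 127 of 341 tested (37.2%). Between 100 and 500 FPKM, 9 of 18 complex I genes were lower (median 0.00), against 53.1% of all genes (median -0.02), with NDUFB10 and NDUFA7 among the higher ones. Here the intervals lay apart for 5 lower genes (27.8%, against 35.1% of all genes tested) and for 6 higher genes. Between 10 and 100 FPKM 8 of 13 were lower (median -0.11), against 38.7% (median 0.07), and under 10 FPKM 5 of 6 (median -0.18), against 36.3% (median 0.08). The Spearman correlation of level and change over the 43 genes was -0.00, so over all levels the change did not go up or down with the level.

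**Figure D4:**
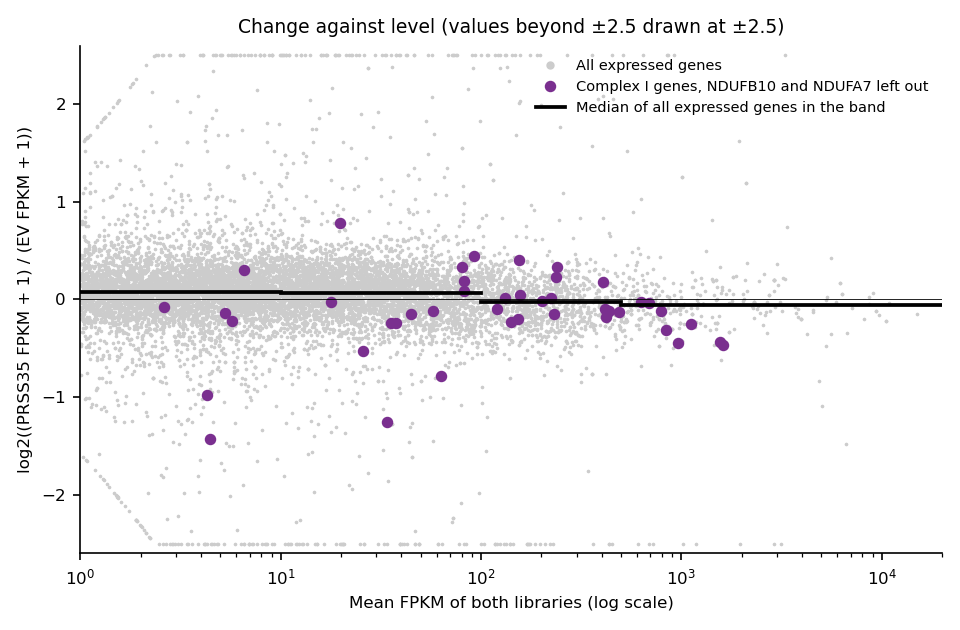
Mean FPKM (log axis) and log2 change of 43 complex I genes (NDUFB10 and NDUFA7 left out) and of all expressed genes, whose median in each level band is a line. The 8 complex I genes at 500 FPKM or more all lie below 0 with a median of -0.28, where that of all genes is -0.06, but scaled to the library's summed FPKM 41 of the 45 complex I genes were higher.

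Over 42 complex I genes the Spearman correlation of transcript GC content and log2 change was weak, -0.11, and over all expressed genes it was -0.13. Apart from NDUFB10 and NDUFA7, which were higher and also lie in this range, all 10 complex I genes whose transcript held at least 55% G and C were lower (median log2 change -0.22), where 53.6% of all such genes were (median -0.02). Below 55%, 19 of 32 complex I genes were lower (median -0.09), against 31.4% of all genes (median 0.10). Complex I transcripts were short, with a median of 748 bases against 2957 for all expressed genes, and had a median of 48.5% G and C against 50.7%. The part of base composition or length in the changes was not tested.

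The changes were also read by the way Cufflinks built a row, and its part in them was not tested. Among the 24 genes assembled from the reads in both libraries 17 were lower (median -0.11, all such genes 0.05). All expressed genes fell into this class in 58.4% of cases, into EV only in 9.79%, into PRSS35 only in 10.4% and into neither in 21.4%. Among the 9 complex I genes assembled only in EV, 7 were lower (median -0.15, all such genes 0.01). Of the 6 assembled only in PRSS35, 4 were lower (median -0.08, all such genes 0.17). The 6 that kept the annotated transcripts in both libraries, NDUFB3, NDUFB11, NDUFV2, NDUFA9, NDUFAB1 and NDUFC1, were lower in 2 cases and had a median of 0.07, against 0.08 for all such genes. The difference of these medians was -0.01.

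Other genes of the pathway were read from a fixed list. Of its 12 expressed assembly factors with other names, 7 were higher and 5 lower, with a median log2 change of 0.05 and none at 2-fold. ECSIT had 165 FPKM in EV and 122 FPKM in PRSS35 cells (log2 change -0.43, on a joined row), and its assembly partner ACAD9 had 18.5 and 21.1 FPKM (0.18). AIFM1, needed for import of some subunits, had 45.1 and 56.9 FPKM (0.33). The gene C17orf89, the older name of the assembly factor NDUFAF8 and so outside the naming rule, was added after its values were seen and had 177 and 187 FPKM (0.08). NDUFA4L2, a relative of NDUFA4, was listed at 0 in both libraries.

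All 4 genes of complex II, which feeds electrons from succinate to ubiquinone beside complex I, were higher in PRSS35 cells, with a median log2 change of 0.22 and intervals apart for 3, where 60.2% of all expressed genes were higher, 25.2% with intervals apart, and the median was 0.06. SDHA had 90.7 and 103 FPKM, and SDHB 89.6 and 112 FPKM. SDHB (log2 change 0.31) and SDHC (0.25) were assembled from the reads in PRSS35 only. Of all genes in that class 76.9% were higher, with a median of 0.17. SDHA (0.18) was assembled in both libraries and SDHD (0.04) in EV only. The part of the row type in these changes was not tested. A further 39 expressed genes were taken for complexes III, IV and V by names that begin with UQCR, COX4 to COX8 or ATP5. These include ATP5SL, which is also on the list of assembly factors. With FPKM as deposited, 22 of the 39 (56.4%) were lower, with a median of -0.04, where 39.8% of all expressed genes were lower. The median EV level of the 39 was 244 FPKM. Of all genes at a mean of 100 to 500 FPKM 53.1% were lower (median -0.02), and at 500 or more 62.1% (median -0.06). The share of the 39 lies between these. Of the regulators whose letters were searched above, NRF1 had 6.61 and 6.57 FPKM, GABPA 1.795 and 2.05 FPKM and YY1 14.2 and 14.3 FPKM. ESRRA, the gene of an ERR receptor, had 84.2 FPKM in PRSS35 cells but was listed at 0 in the EV library. As for NDUFB10, such a 0 can be a failed estimate, and 1.93% of all expressed genes were listed at 0 in 1 library only. GABPB1, a regulator on the same list with a mean under 1 FPKM, had 0.888 FPKM in EV and was listed at 0 in PRSS35 cells. TFAM, which packages and transcribes mitochondrial DNA, had 3.84 and 5.40 FPKM (log2 change 0.40). PPRC1, a relative of PPARGC1A, had 15.0 and 12.9 FPKM (-0.21), and the intervals lay apart for both. TFB1M and TFB2M, named as mitochondrial transcription factors, had log2 changes of -0.16 and 0.03, and PPARGC1A, a coactivator of respiratory genes, had 0.0894 and 0.0578 FPKM.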

How the data were processed

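Total RNA of PLC cells was sequenced by the authors on an Illumina HiSeq, with 1 EV and 1 PRSS35 library. The submitters' notes name TopHat2 2.1.0 and Cuffdiff 2.2.1, and the methods name Cufflinks and hg19. The annotation release is not given in the sources used here. The deposited tables hold 1 FPKM value per locus with a lower and an upper bound, scaled by the authors for transcript length and mapped fragments. They hold 30971 loci for EV and 30543 for PRSS35. Counts were not used, so no count model was fitted.

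Rows joining several genes gave their value to each name, loci on haplotype and unplaced contigs were left out, and FPKM was summed over rows of 1 name. Names with a mean of at least 1 FPKM were called expressed. A change is the log2 ratio with a pseudocount of 1 FPKM, called at 2-fold, and is compared with the median and share of all expressed genes. A number of fragments was implied from the bounds of a level, by taking the distance from the level to its upper bound as 2 Poisson standard deviations. These implied fragments measure the relative width of an interval and are not counts. In EV they were 2087 for NDUFV1, 2073 for NDUFS7 and 2027 for NDUFA13, at levels of 444, 1110 and 1784 FPKM. Their median over complex I genes was 1335 in EV and 1352 in PRSS35. They cover error within a library only, and each condition being 1 library sets the precision.

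All genes were described by role, with full values for core subunits, assembly factors, joined genes, genes at 0, genes at 2-fold and the extremes of level and change. A single gene is part of every count and median but is not reported here by itself. The gene set and all lists were chosen with earlier results of these data known. Transcript length and GC content come from GENCODE v44lift37 on GRCh37, in which all 45 genes overlap their loci and 44 have a transcript. Promoters come from RefSeq on GRCh38.p14, whose coordinates were not mixed with hg19. The labels name the NEBNext Ultra kit, which is not a strand-marking kit, and 21 of the 45 genes have named pseudogenes, 63 in all. Alternatives were other pseudocounts, scalings, filters, fold thresholds and row types. Tools were matplotlib 3.10.9, scipy 1.17.1, pandas 2.3.3 and numpy 2.4.6 under Python 3.11.15.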

Additional observations from a re-analysis of the deposited data

How the results depend on the processing

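No paired analysis was possible because EV and PRSS35 are 1 library each, and leaving out a replicate was not possible for the same reason. The median log2 change of the complex I genes was -0.11, and it was -0.18 after centring on all genes or scaling by the upper quartile. It turned to 0.59 with each library scaled to its summed FPKM, where all genes had 0.68, 41 genes were higher, 7 were higher by 2-fold and 0 lower by 2-fold. That scaling called 1273 of all genes higher and 180 lower by 2-fold, against 303 and 276 as deposited. It also turned to 0.0659 for the 6 genes annotated in both libraries, where 4 were higher, and 0 were higher and 0 lower by 2-fold. The difference from the median of all genes was -0.18 and stayed between -0.19 and -0.01 under the alternatives above and below. Of the 2 genes higher by 2-fold, 1 was left without joined rows or without genes at 0. Among genes with the same row type and above 0 in both libraries 1 was left too, as NDUFB10 fell out through its 0. Without NDUFB10 and NDUFA7, an alternative chosen after seeing the data, 0 were left. Of the 2 lower by 2-fold, 1 was left with a pseudocount of 5 FPKM or with a mean of at least 5 FPKM. With the same row type and above 0 in both libraries 1 was left as well. With a pseudocount of 0.1 FPKM, after centring or after scaling by the upper quartile 3 were lower, as NDUFAF5 passed 2-fold with -1.20, -1.04 and -1.03. At 1.5-fold, 4 were lower. For all genes the 2-fold counts were 192 higher and 162 lower with a pseudocount of 5 FPKM, 183 and 182 without joined rows, and 201 and 163 without genes at 0. Above 0 in both libraries, they were 7 and 8 for annotated rows and 140 and 106 for the same row type. At 1.5-fold the counts were 581 and 475. The cause of these shifts was not tested beyond the genes each alternative removes. With 1 library per condition, differences within the spread of cultures cannot be seen.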

Other observations

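Antisense genes lie beside some complex I genes, and without strand their reads cannot be told apart where the transcripts overlap. NDUFA6-AS1 had a level of 8.33 FPKM in EV and was listed at 0 in PRSS35 cells, while NDUFA6 had 77.2 and 88.0 FPKM. TOPORS-AS1, beside NDUFB6, had 5.79 and 7.503 FPKM, and NDUFV2-AS1 had 1.86 and 1.60 FPKM. NDUFB2-AS1 was listed at 0 in both libraries. These genes were chosen after their values were seen.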
